A study of Rattus norvegicus with 60 samples.

Results

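The potassium channel genes were taken as every gene whose annotated symbol starts with Kcn, apart from the Kcnip genes, which encode calcium-binding partners of the channels. The array measured 71 such genes, out of 14217 genes that had a probe set with a single symbol. A probe set is a group of short probes against one transcript. The 71 genes were covered by 116 probe sets. There were 44 genes with 1 probe set and 27 with several, and for each gene the probe set with the highest mean over all arrays was used. No measured difference entered the choice of probe set, although the genes were chosen with earlier results of these data known. All values are log2 intensities. Differences were taken between samples and never between genes, because each probe set has its own brightness. Mean levels were used across genes to mark low ones and to group probe sets by level.

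RNA came from the hippocampus, cortex and striatum of rats of the SD strain in 4 treatment groups, with 5 arrays for each treatment and region and 60 arrays in all. One group ate chow that held 0.2% lithium chloride (LiCl), and its control was the chow vehicle. Lamotrigine was injected under the skin once a day at 30 mg/kg, and its control was the injection vehicle. All tissue was taken after 21 days. Lithium is a mood stabiliser, and lamotrigine, which acts mainly on sodium channels, is given in epilepsy and in bipolar disorder. Age and sex were not given, and a label field that names mouse tissue and constant delivery for every sample stands against the other labels, which name rat and daily injection. Animal numbers in the descriptions gave 5 different rats to each treatment and region, and no other label says that these samples came from separate rats. Each p-value sets a difference against the spread between these samples.

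Potassium channels let potassium leave the cell, which sets the resting potential, ends the action potential and controls how fast a neuron fires again. Voltage-gated channels (Kcna, Kcnb, Kcnc, Kcnd, Kcnh and Kcnq) open on depolarisation. Inward rectifiers (Kcnj) and leak channels (Kcnk) act near rest, calcium- and sodium-activated channels (Kcnma, Kcnn and Kcnt) follow firing, and accessory or silent subunits (Kcnab, Kcne, Kcng, Kcns and Kcnv) change the behaviour of the pore-forming ones. In the striatum, inward rectifiers and A-type currents are known for holding medium spiny neurons in their silent state.

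Markers of the regions lay where the labels put them. A list of genes of medium spiny neurons had a mean log2 level of 11.44 to 12.14 in the striatal arrays and 7.27 to 7.82 in all others. A list of hippocampal principal neurons stood at 7.85 to 8.21 in hippocampus and 6.68 to 7.10 elsewhere. No 2 arrays were identical, and the median intensity of an array lay between 93.8 and 101.4. In 12 arrays a list of choroid plexus genes lay more than 1 log2 unit above the median of its region (the choroid-high arrays). Of the 71 channel genes, 31 had a mean log2 level under 6, a low level on these arrays.

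Most potassium channel genes differed between the regions, with Kcnj6, Kcns3 and Kcnc2 far lower and Kcnab1, Kcna5 and Kcna4 higher in striatum than in cortex. Between striatum and cortex of the vehicle groups (10 arrays per region, both vehicles given equal weight), 49 of 71 genes passed the test, or 69.0%, against 55.9% of all probe sets and 61.7% of the 14217 genes when each gene was likewise counted once. In striatum 22 were higher (31.2% of all probe sets) and 27 were lower (24.7% of all probe sets). The median size of the difference was 0.358 on the log2 scale, against 0.163 over all probe sets. The arrays of both regions did not overlap at all for 28 genes, or 39.4%, against 15.5% of all probe sets. Here and below, median sizes, overlap and counts by direction are set only against all probe sets, not against each gene counted once. In each region this is bulk tissue, so fewer cells of a type and less RNA per cell cannot be told apart. Calls here and below are limma adjusted p-values under 0.05, with Benjamini-Hochberg adjustment over all probe sets.

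The largest difference was in Kcnj6, which encodes GIRK2, a G-protein-gated inward rectifier that inhibitory receptors open. Its log2 level in cortex was 9.80, 9.74, 9.73, 9.65 and 9.62 with the chow vehicle and 9.46, 9.56, 9.39, 9.37 and 9.43 with the injection vehicle. In hippocampus it was 10.01, 9.89, 10.24, 10.06 and 10.44 with the chow vehicle and 10.04, 10.38, 9.87, 9.68 and 10.002 with the injection vehicle. In striatum it was 4.28, 4.73, 4.92, 4.80 and 4.61 with the chow vehicle and 6.15, 4.31, 4.75, 6.14 and 5.29 with the injection vehicle. Every striatal array lay far below every array of the other regions, by 4.58 ± 0.16 (SE) log2 units against cortex, or 23.9-fold (adjusted p = 2.53e-31), and by 33.2-fold against hippocampus. The 3 highest striatal arrays, at 5.29 to 6.15, also had the highest levels of a list of cortical principal neuron genes among the striatal vehicle arrays, at 7.18 to 7.49 against 6.34 to 6.86 in the other 7, and the part of neighbouring cortex in these values was not tested. The other 3 probe sets of Kcnj6 were dimmer and did not all follow it, with striatum minus cortex differences of 0.14, -1.18 and -0.47.

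Of the other GIRK genes, Kcnj3 and Kcnj9 went the same way, and Kcnj5 did not. Kcnj3 encodes GIRK1, and its log2 level was 5.49 to 6.68 (median 6.09) in striatum, 7.62 to 8.60 (median 8.16) in cortex and 7.14 to 8.53 (median 8.23) in hippocampus. It was lower in striatum than in cortex by -2.07 ± 0.13 (SE) log2 units (adjusted p = 3.79e-21), although of its other probe sets one differed by -1.38 and one by 0.26. Kcnj9 encodes GIRK3, and its level was 4.87 to 5.62 (median 5.27) in striatum, 6.84 to 7.36 (median 7.02) in cortex and 6.19 to 7.05 (median 6.51) in hippocampus. It differed by -1.84 ± 0.10 (SE) between striatum and cortex (adjusted p = 2.94e-24), and no striatal array reached any array of the other regions for either gene. Kcnj5, which encodes GIRK4 and was named here after its values were seen, had a striatum minus cortex difference of 0.05 (adjusted p = 0.426) and was higher in striatum than in hippocampus by 0.15 (adjusted p = 0.0259).

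Kcna5 encodes Kv1.5, a Shaker-related delayed rectifier, and ran the other way. Its log2 level in striatum was 7.97, 8.36, 7.83, 8.03 and 7.83 with the chow vehicle and 7.73, 7.98, 7.97, 8.05 and 8.40 with the injection vehicle. In cortex it lay between 5.37 and 6.31 (median 5.88), and in hippocampus between 4.65 and 5.44 (median 5.10). Every striatal array was above all others, with a difference of 2.15 ± 0.12 (SE) against cortex (adjusted p = 2.37e-23) and 2.98 ± 0.12 against hippocampus.

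To set these genes beside their DNA, the 250 bases before the start of Kcnj6, Kcnj9 and Kcna5, whose arrays did not overlap between striatum and cortex, are printed, with those of Kcne3, an accessory subunit that changed under LiCl. They are from RefSeq on the rat build GRCr8, 5′ to 3′ on the gene's strand. Capitals mark the letters GGGCGG (a GC box) and CAGCTG (an E box), searched on both strands, and TATAAA was searched too. Kcnj6 lies at chr11:47778349-47778598, minus strand, Kcnj9 at chr13:87320294-87320543, minus strand, Kcna5 at chr4:161043810-161044059, minus strand, and Kcne3 at chr1:163935785-163936034, plus strand.
Kcnj6: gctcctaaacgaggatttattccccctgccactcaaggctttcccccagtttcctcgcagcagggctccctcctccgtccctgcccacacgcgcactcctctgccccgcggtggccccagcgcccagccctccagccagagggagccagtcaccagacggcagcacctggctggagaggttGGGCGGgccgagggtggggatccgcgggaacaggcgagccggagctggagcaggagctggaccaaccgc
Kcnj9: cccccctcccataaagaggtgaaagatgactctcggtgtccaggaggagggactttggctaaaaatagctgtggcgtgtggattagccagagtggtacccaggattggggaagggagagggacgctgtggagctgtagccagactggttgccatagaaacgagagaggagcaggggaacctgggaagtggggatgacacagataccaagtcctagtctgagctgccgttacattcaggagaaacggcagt
Kcna5: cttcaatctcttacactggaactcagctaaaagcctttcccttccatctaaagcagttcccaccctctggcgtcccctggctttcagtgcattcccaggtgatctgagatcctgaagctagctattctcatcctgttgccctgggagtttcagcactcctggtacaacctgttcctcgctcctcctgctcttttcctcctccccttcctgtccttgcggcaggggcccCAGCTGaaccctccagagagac
Kcne3: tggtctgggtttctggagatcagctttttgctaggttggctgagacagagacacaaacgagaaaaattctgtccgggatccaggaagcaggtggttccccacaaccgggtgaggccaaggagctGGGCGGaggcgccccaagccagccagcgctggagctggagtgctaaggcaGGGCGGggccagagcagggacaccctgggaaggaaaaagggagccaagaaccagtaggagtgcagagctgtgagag

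The window of Kcnj6 was 69.2% G and C and held 1 GC box, and that of Kcne3 was 59.6% G and C and held 2. The window of Kcna5 was 54.8% G and C and held 1 E box, and that of Kcnj9, also 54.8%, held none of the 3 motifs. Entries were found for 49 of the 71 channel genes, with 54 windows. The GC box was in 29 of these windows, or 53.7%, against 30.5% of all 33465 windows. TATAAA was in 2 of them, or 3.7%, against 12.9% of all, and the E box in 18.5% against 12%. The median share of G and C was 61.8% in the channel windows and 51.2% in all. A match is a run of letters and shows no binding.

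Some of these genes lie next to another channel gene on GRCr8, and the probe sets of several neighbours had unlike regional differences. There were 7 such pairs among 13 genes. Kcnj6 lies beside Kcnj15 on chromosome 11, and Kcnj15, another inward rectifier, differed between striatum and cortex by 0.21 (adjusted p = 0.0021) where Kcnj6 differed by -4.58. Kcnj9 lies beside Kcnj10 on chromosome 13, where Kcnj10, the Kir4.1 channel of astrocytes, had a difference of -0.01 (adjusted p = 0.943). Kcnj15 and Kcnj10 had low mean log2 levels, at 4.80 and 5.56. Their small differences therefore cannot show that they lack the pattern of their neighbour. Kcna5, Kcna1 and Kcna6 lie in a row on chromosome 4, with differences of 2.15, 0.31 and 0.09.

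Among Kv1 channels and their beta subunits, 2 further genes stood out in striatum. Kcnab1 encodes the cytoplasmic subunit Kv beta 1, which can give Kv1 channels rapid inactivation. Its log2 level was 12.28 to 12.57 (median 12.37) in striatum, 10.98 to 11.35 (median 11.20) in hippocampus and 9.92 to 10.22 (median 10.10) in cortex, so that the regions formed 3 separate steps. The striatum minus cortex difference was 2.30 ± 0.05 (SE; adjusted p = 6.79e-42), and its second probe set gave 2.37. Kcna4 encodes Kv1.4, the rapidly inactivating Kv1 channel, and followed the same order, with medians of 9.85, 8.65 and 8.0 in striatum, hippocampus and cortex. Its striatum minus cortex difference was 1.87 ± 0.08 (SE; adjusted p = 1.19e-27) and its hippocampus minus cortex difference was 0.65 ± 0.08 (SE; adjusted p = 2.1e-09). The other Kv beta genes, named after their values were seen, were both lower in striatum than in cortex, Kcnab2 by -0.84 and Kcnab3 by -0.70.

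The Kv4 (Kcnd) genes, which carry the somatodendritic A-type current, were split. Kcnd1 had a striatum minus cortex difference of 1.35 ± 0.09 (SE; adjusted p = 6.71e-20), with striatal arrays at 7.27 to 8.08 and cortical arrays at 6.0 to 6.71. Kcnd2, which encodes Kv4.2, stood at 11.11 to 11.26 in striatum, 10.43 to 10.84 in hippocampus and 10.03 to 10.24 in cortex, with no overlap between any of the regions. Kcnd3, named after its value was seen, went down by -1.01 ± 0.10 (SE; adjusted p = 1.27e-13) from cortex to striatum.

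The Kv3 (Kcnc) channels, which serve fast-spiking neurons, were lower in striatum for all 3 measured genes. Kcnc2, encoding Kv3.2, was at 7.68 to 9.18 (median 8.18) in striatum and 10.76 to 11.11 (median 10.87) in cortex. The difference was -2.62 ± 0.15 (SE; adjusted p = 1.32e-22), and 4 of its other 5 probe sets differed by -2.60 to -1.49, while the remaining one differed by 0.22. Kcnc4, encoding Kv3.4, was lower in striatum than in hippocampus by -1.81 ± 0.08 (SE; adjusted p = 1.26e-28), though its second probe set differed by only -0.10. Kcnc1, named after its value was seen, differed by -1.16 ± 0.08 between striatum and cortex.

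Silent subunits, which form no channel alone and alter Kv2 channels, included some of the steepest changes. Kcns3 had a log2 level of 4.75 to 5.96 in striatum, 7.81 to 8.37 in cortex and 8.11 to 8.60 in hippocampus, a striatum minus cortex difference of -2.89 ± 0.15 (SE; adjusted p = 2.47e-24). Kcng2 was the gene most raised in hippocampus over cortex, with 8.67 to 9.52 against 7.12 to 7.88 and a difference of 1.41 ± 0.07 (SE; adjusted p = 1.69e-23). Kcns1 and Kcnv1 were lower in hippocampus than in cortex, by -1.54 ± 0.14 and -1.29 ± 0.10. Kcnb2, the one Kv2 channel measured, was lower in hippocampus by -1.03 ± 0.07 (SE; adjusted p = 2.41e-18), with arrays at 5.41 to 6.02 against 6.33 to 7.58. The gap was wider with the injection vehicle, with means of 5.94 in hippocampus and 7.27 in cortex. With the chow vehicle the means were 5.70 and 6.43.

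Leak channels held a contrasting pair. Kcnk2 encodes TREK-1 and Kcnk4 encodes TRAAK, both opened by stretch and lipids. Kcnk2 stood at 10.59 to 10.77 (median 10.67) in striatum, 8.66 to 9.21 (median 9.0) in cortex and 7.46 to 8.37 (median 7.89) in hippocampus, with no overlap. Kcnk4 had the reverse order between striatum and cortex, at 5.12 to 6.03 (median 5.60) in striatum, 6.62 to 7.20 (median 6.77) in hippocampus and 7.73 to 8.42 (median 8.07) in cortex. The striatum minus cortex differences were 1.70 ± 0.08 (SE; adjusted p = 3.18e-27) for Kcnk2 and -2.48 ± 0.08 (SE; adjusted p = 9.83e-34) for Kcnk4. The second probe set of Kcnk2 gave 0.86.

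Channels activated by calcium or sodium, and those of the EAG family, gave further called differences. Kcnn3, the SK3 channel of the afterhyperpolarisation, was higher in striatum than in cortex by 1.14 ± 0.07 (SE; adjusted p = 2.11e-20). Kcnt1, the sodium-activated Slack channel, was at 8.84 to 9.76 in striatum, 8.33 to 8.89 in cortex and 6.73 to 7.58 in hippocampus, so that no hippocampal array reached the other regions, which overlapped slightly. Of its other probe sets, one differed by -1.48 between hippocampus and cortex, near the -1.46 of the one used, and one by 0.03. Kcnh1, encoding Kv10.1, was lower in hippocampus than in cortex by -1.19 ± 0.07 (SE; adjusted p = 3.9e-20). Kcnh4, of the ELK group, was higher in striatum than in hippocampus by 1.5 ± 0.05 (SE; adjusted p = 4.14e-32).

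By family, of 15 Kcnj genes 5 were higher in striatum than in cortex, 6 were lower and 4 did not pass, and of 11 Kcnk genes 3 were higher and 3 lower. Of 8 Kcnh genes 1 was higher and 4 were lower. Over all probe sets 31.2% were higher and 24.7% were lower in striatum than in cortex. None of the 3 measured Kcnq genes, Kcnq1 and the M-current channels Kcnq3 and Kcnq5, passed in this comparison, with a median difference of 0.08. Between hippocampus and cortex 41 genes passed, or 57.7%, against 42.4% of all probe sets and 47.3% of genes, with 14 higher (21.3% of all) and 27 lower (21.1% of all) in hippocampus. The median size was 0.298, against 0.118 over all probe sets, and 18 genes did not overlap, against 7.48% of all probe sets. Between striatum and hippocampus 45 passed, or 63.4%, against 50.9% of all probe sets and 55.2% of genes, with 28 higher (27.4% of all) and 17 lower (23.5% of all) in striatum. The median size was 0.266, against 0.148, and 26 genes did not overlap, against 13.3% of all probe sets. Inward rectifier Kcnj16, a partner of Kir4.1, was higher in hippocampus than in cortex by 0.89 ± 0.13 (SE; adjusted p = 1.24e-07).

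**Figure D1:**
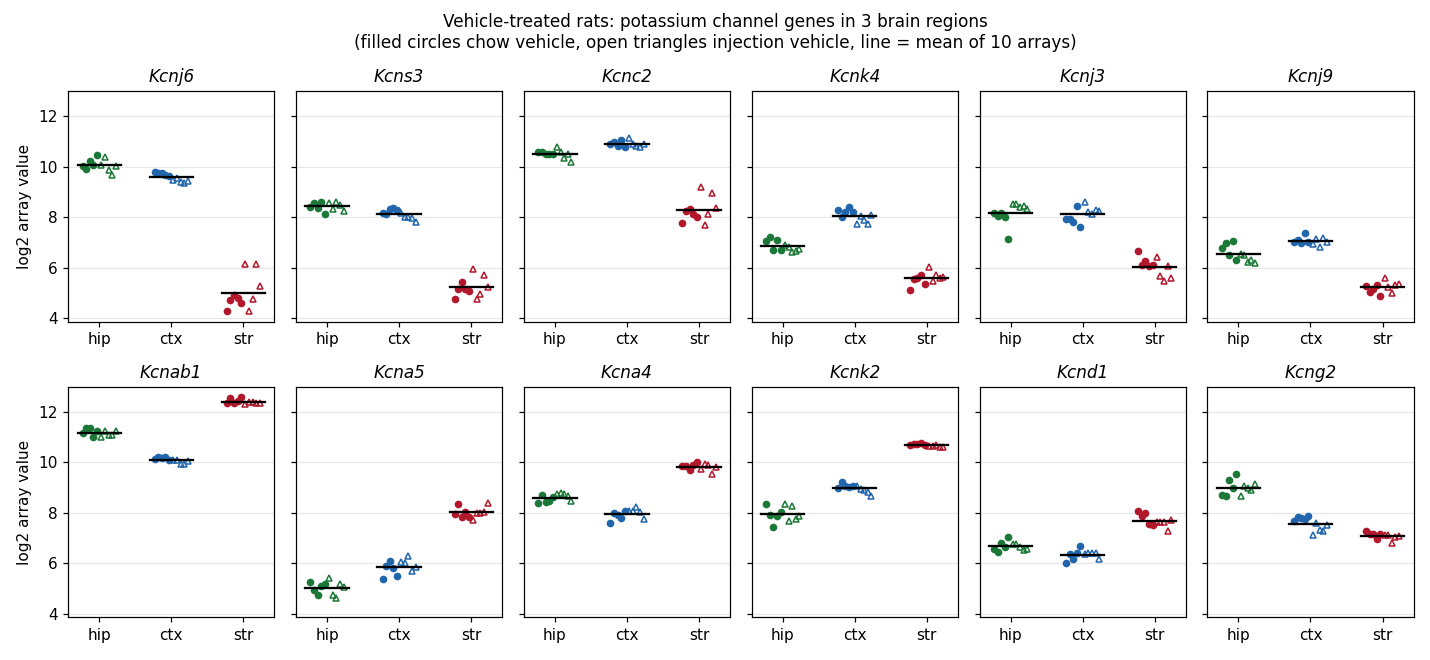
Log2 intensity of 12 potassium channel genes in each vehicle array of cortex, hippocampus and striatum (filled circles, chow vehicle; open triangles, injection vehicle; line, mean of 10 arrays). Kcnj6 sat at 9.37 to 10.44 in cortex and hippocampus and at 4.28 to 6.15 in striatum, while Kcna5 was highest in striatum, at 7.73 to 8.40.

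To ask what LiCl did to these genes, the LiCl arrays were set against the chow vehicle arrays within each region. In cortex 15 of 71 genes passed the test, or 21.1%, against 13.4% of all probe sets and 14.5% of genes. There were 6 higher with LiCl (5.22% of all probe sets) and 9 lower (8.20% of all). The groups did not overlap for 12 genes, or 16.9%, against 11.8% of all probe sets. The median difference was -0.05 over the 71 genes and -0.00 over all probe sets. Every called change was below 0.5 log2 units.

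The voltage-gated channels of cortex that fell were Kcnb2, Kcnh1, Kcnd2 and Kcnq5. For the A-type channel Kcnd2 the log2 level was 10.13, 10.13, 10.15, 10.16 and 10.18 with the chow vehicle and 9.77, 9.96, 9.80, 9.83 and 9.66 with LiCl. The groups did not overlap, and the difference was -0.35 ± 0.06 (SE; adjusted p = 0.00322), with -0.27 in its second probe set (adjusted p = 0.0405). Kcnh1 was at 9.31, 9.39, 9.39, 9.35 and 9.05 with the chow vehicle and 8.90, 8.98, 8.88, 8.94 and 9.0 with LiCl, where the lowest control array still lay above the highest LiCl array. Its difference was -0.36 ± 0.07 (SE; adjusted p = 0.00549). Kcnb2 was at 6.35, 6.39, 6.46, 6.33 and 6.64 with the chow vehicle and 5.91, 5.98, 6.12, 6.15 and 6.10 with LiCl, again without overlap, a difference of -0.38 ± 0.11 (SE; adjusted p = 0.0228). Kcnq5, an M-current channel, differed by -0.25 (adjusted p = 0.0378).

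The largest fall among the called genes was in Kcnj6. Its cortical level was 9.25, 9.30, 9.34, 9.29 and 9.31 with LiCl, each array below all 5 chow vehicle arrays given above. The difference was -0.41 ± 0.06 (SE; adjusted p = 0.000922). A second, dimmer probe set of Kcnj6 moved the other way, by 0.48 (adjusted p = 0.00165), so the direction for the gene depended on the probes. The leak channels Kcnk2 and Kcnk1 fell by 0.31 and 0.30 (adjusted p = 0.0261 and 0.0342), but the second probe set of Kcnk2 rose by 0.28 (adjusted p = 0.0273). The silent subunits Kcnv1 and Kcng2 fell by 0.30 and 0.26 (adjusted p = 0.0384 and 0.0415), with -0.27 in the second probe set of Kcng2 (adjusted p = 0.0451).

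Genes that rose in cortex were led by Kcnk3, the acid-sensitive leak channel TASK-1. Its level was 6.56, 6.28, 6.38, 6.15 and 6.16 with the chow vehicle and 6.68, 6.60, 6.57, 6.81 and 6.71 with LiCl, a small gap between the groups. The difference was 0.37 ± 0.10 (SE; adjusted p = 0.0203), and its second probe set gave 0.35 (adjusted p = 0.023). The accessory subunits Kcne4 and Kcne3, which modify Kv channels, rose by 0.35 and 0.31 (adjusted p = 0.0302 and 0.0171). Kcnj14 and Kcnj15, inward rectifiers, rose by 0.31 and 0.30 (adjusted p = 0.0304 and 0.0452), and Kcnq1, best known from heart and ear, rose by 0.28 (adjusted p = 0.0250).

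Level and direction were related in this comparison for the array as a whole. Probe sets with a mean log2 level under 6 had a median difference of 0.09, against 0.03 for the channel genes at that level, while those between 8 and 10 had -0.10, against -0.13 for the channel genes. The LiCl arrays of cortex had a narrower spread of log2 values, with an interquartile range of 3.37 ± 0.0566 (SD, n = 5), against 3.58 ± 0.0223 in the chow vehicle arrays. No LiCl array reached the spread of a chow vehicle array, at 3.29 to 3.44 against 3.56 to 3.61. As a covariate the spread therefore nearly follows the groups, so calls lost with it cannot tell LiCl and spread apart. With that covariate 0 of the 71 genes passed in limma and 11 had an unadjusted p under 0.05. After quantile normalization 6 passed, namely Kcnj6, Kcnb2, Kcnk3, Kcnd2, Kcnj14 and Kcne3. Leaving out single arrays left 7 to 13 called genes, with 7 without LiCl replicate 1 or chow vehicle replicate 2 and 8 without LiCl replicate 5 or chow vehicle replicate 4. Kcnj6, Kcnd2, Kcnh1 and Kcne3 were called in all 10 of these fits.

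**Figure D2:**
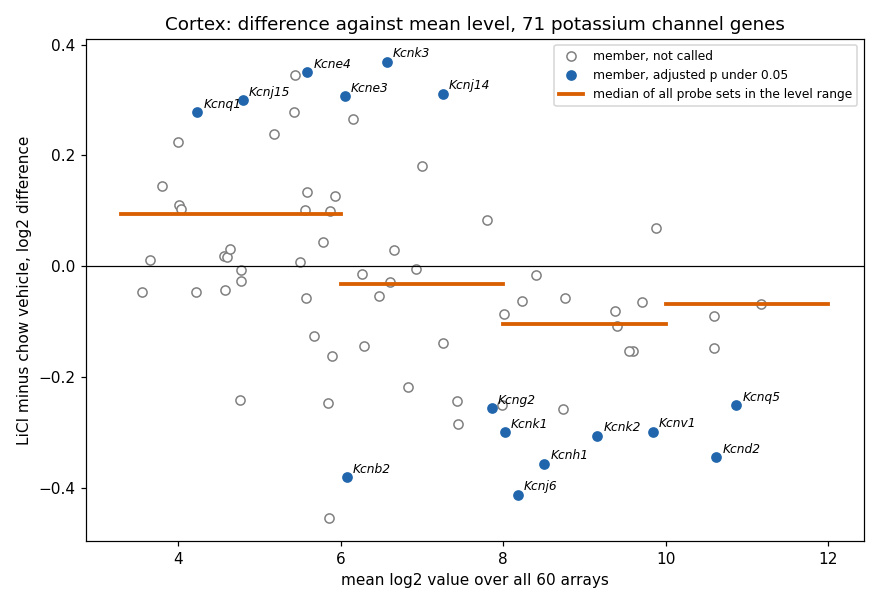
LiCl minus chow vehicle difference in cortex (log2) for the 71 potassium channel genes against their mean log2 level over all arrays, with the called genes marked; the orange steps give the median of all probe sets in each range of level. The steps go from 0.09 below a level of 6 to -0.10 between 8 and 10, and the called genes that rose had mean levels of 4.24 to 7.26, those that fell 6.08 to 10.87.

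Partner genes, most of them for proteins that associate with the channels, were described through a list of 31 genes, of which 27 were measured. With LiCl in cortex 0 of these rose and 7 fell, against 5.22% and 8.20% of all probe sets, at a median of -0.10 over the list. With the array spread as a covariate no probe set on the array passed in limma, so none of these 7 did. That covariate nearly follows the groups, so this loss cannot tell LiCl and spread apart. Among those that fell, Kcnip2 and Dpp10, partners of Kv4 channels, changed by -0.36 and -0.34 (adjusted p = 0.0133 and 0.00409), beside the fall of Kcnd2. Cntnap2, which gathers Kv1 channels along the axon, and Amigo1, a partner of Kv2, changed by -0.31 and -0.30 (adjusted p = 0.00354 and 0.00735). The others were Dlg2, Lgi1 and Kcnip4. Of 8 measured genes of cortical principal neurons 3 fell and 0 rose, with a median of -0.26, and their part in the channel results was not tested.

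In hippocampus 1 gene passed with LiCl, Kcne3, against 0.235% of all probe sets, and this call depended on the processing. It was at 6.25, 6.13, 6.16, 5.99 and 6.29 with the chow vehicle and 5.75, 5.76, 5.78, 6.02 and 5.72 with LiCl. The groups overlapped through LiCl replicate 4, and the difference was -0.36 ± 0.07 (SE; adjusted p = 0.0401). Its adjusted p ranged from 0.0238 to 0.12 when single arrays were left out, and the call was lost when LiCl replicate 1, 2, 3 or 5, or replicate 1, 2 or 3 of the chow vehicle, was the one omitted. It was also lost when the choroid-high arrays were omitted, after quantile normalization, with the array spread as a covariate and with the replicate number as a block. Kcnh5 and Kcnj12 had differences of -0.31 and -0.38 that did not pass (adjusted p = 0.168 and 0.169), and 20 genes had an unadjusted p under 0.05. One gene did not overlap between the groups, against 3.87% of all probe sets.

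In striatum 0 genes passed with limma, as for 0% of all probe sets. At an unadjusted p under 0.05 there were 12. Kcne3 again had the smallest p, with 6.41, 6.05, 6.36, 6.30 and 6.04 for the chow vehicle and 5.92, 5.83, 5.95, 5.91 and 5.72 for LiCl. Its groups did not overlap, but the difference of -0.37 did not pass (adjusted p = 0.148); in one fit of all 60 arrays it did, with -0.36 (adjusted p = 0.0216). Kcnk2 and Kcne1 had differences of -0.28 and -0.25 (adjusted p = 0.191 and 0.24). There were 4 genes without overlap, against 2.96% of all probe sets. In these arrays the median of the choroid plexus list was 1.68 higher with LiCl, and 0 of its 11 measured genes passed.

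Whether the LiCl effect differed between the regions was tested in one fit of all arrays. The test passed for 12 of 71 genes, or 16.9%, against 17.2% of all probe sets, so the channel genes were close to the background. Kcne3 had the smallest adjusted p, 2.95e-06, with cortical arrays at 5.83, 5.96, 5.92, 6.04 and 5.98 for the chow vehicle and 6.28, 6.19, 6.12, 6.35 and 6.32 for LiCl. All LiCl arrays lay above all controls in cortex, and below all controls in striatum. The second, dimmer probe set of Kcne3 did not pass this test (adjusted p = 0.158).

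Kcnk3 came next (adjusted p = 0.00027). It rose by 0.37 in cortex and had differences of -0.15 in hippocampus and -0.26 in striatum (adjusted p = 0.452 and 0.242 within the region). Its striatal arrays were 6.60, 6.71, 6.56, 6.74 and 6.78 with the chow vehicle and 6.35, 6.32, 6.53, 6.45 and 6.45 with LiCl, without overlap. Kcnd2 (adjusted p = 0.00122) and Kcnh1 (adjusted p = 0.0106) went down in cortex and had values of 0.19 and 0.22 in hippocampus that did not pass there. Kcnq5 (adjusted p = 0.0124), Kcnj15 (adjusted p = 0.0193) and Kcng2 (adjusted p = 0.0354) had been called in cortex too.

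The other 5 had no call within any single region. These were Kcnh6, of the ERG group (0.28 in cortex and -0.21 in striatum, adjusted p of the regional difference 0.00298), Kcne1, an accessory subunit (0.00815), Kcnmb1, a beta subunit of the BK channel (0.00973), Kcnk6, a leak channel (0.0169), and Kcnn1, the SK1 channel (0.043). The second probe set of Kcnk6 did not pass this test (adjusted p = 0.734). Kcnh6, Kcne1, Kcnmb1 and Kcnk6 had low mean log2 levels, at 5.42, 3.81, 4.00 and 5.18, as did Kcnj15, at 4.80. With LiCl, all probe sets under a level of 6 had median differences of 0.09 in cortex, -0.06 in hippocampus and -0.05 in striatum. The part of this shift in the calls of these low genes was not tested. The interquartile range of each array was also used as a covariate, an alternative chosen after seeing the data. With it 0 of the 71 passed in limma and 7 had an unadjusted p under 0.05. The mean interquartile range with LiCl was above that of the chow vehicle in hippocampus (3.59 against 3.48). It was also above in striatum (3.53 against 3.45), the reverse of cortex. The covariate thus moved with LiCl in each region, so the calls lost with it cannot tell LiCl and spread apart.

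**Figure D3:**
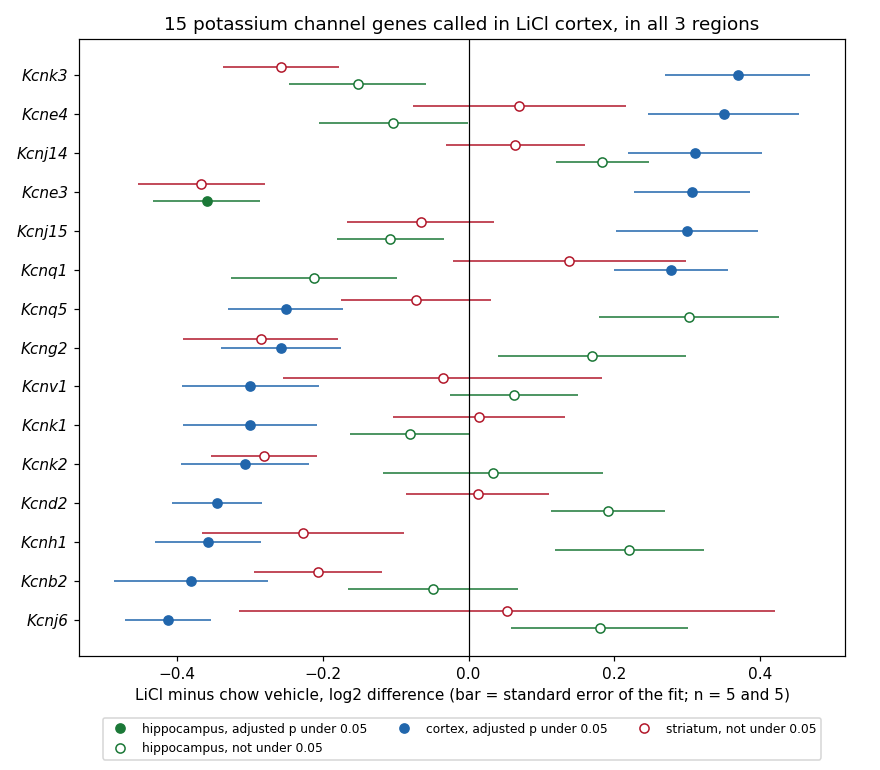
LiCl minus chow vehicle difference (log2, bars are the standard error) in hippocampus, cortex and striatum for the 15 potassium channel genes called in cortex, with filled symbols where the gene passed within that region. Kcne3 was 0.31 in cortex and -0.36 in hippocampus, and it alone has a filled symbol outside cortex, a call that was lost under several alternatives.

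For lamotrigine the lamotrigine arrays were set against the injection vehicle. In hippocampus 0 of 71 genes passed in limma, against 0.00322% of all probe sets. At an unadjusted p under 0.05 there were 8. The smallest adjusted p was 0.195, for Kcnj14, with 7.05, 7.04, 6.92, 7.06 and 7.05 for the vehicle and 7.40, 7.37, 7.25, 7.22 and 7.26 for lamotrigine. These arrays did not overlap, with a difference of 0.28, and 3 genes in all had no overlap, against 2.14% of all probe sets. Kcnj9 and Kcnab1 had differences of 0.33 and -0.22 (adjusted p = 0.344 and 0.331). The median of the choroid plexus list was -0.92 in this comparison, and 0 of its 11 genes passed.

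In cortex and in striatum 0 genes passed with limma, as for 0% of all probe sets in both regions. In each region 2 genes had an unadjusted p under 0.05, and 0 of the 71 genes had groups that did not overlap, against 0.763% of all probe sets in cortex and 0.557% in striatum. In cortex the 3 genes with the smallest p were Kcnj15 (0.25), Kcnk2 (0.18) and Kcnd3 (-0.27), and the smallest adjusted p was 0.817. In striatum they were Kcnk6 (0.17), Kcng2 (-0.23) and Kcne4 (0.28), and the smallest adjusted p was 0.997. The lamotrigine effect did not differ between regions for any of the 71 genes in limma, as for 0% of all probe sets, where 6 had an unadjusted p under 0.05 and the smallest adjusted p was 0.85.

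The drugs were compared with each other through the difference of their effects, each against its own vehicle. In no region did a channel gene pass this test in limma, with 16, 13 and 5 genes at an unadjusted p under 0.05 in hippocampus, cortex and striatum. Over all probe sets 0% passed in hippocampus, 0.0129% in cortex (0.00966% in the lower direction) and 0% in striatum. In cortex Kcnj6 changed by -0.41 with LiCl and by -0.05 with lamotrigine, where its arrays were at 9.47, 9.36, 9.23, 9.59 and 9.33. The difference of the effects was -0.37 (adjusted p = 0.0948), and the call was made without lamotrigine replicate 3, for Kcnj6 (-0.41, adjusted p = 0.0439) and for Kcnh1 (-0.45, adjusted p = 0.0483). Kcnk2 and Kcnh1 had effect differences of -0.49 and -0.40 (adjusted p = 0.113 and 0.121).

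In hippocampus Kcne3 had the smallest p, with an effect difference of -0.46 (adjusted p = 0.083). Its arrays were at 5.86, 6.01, 5.97, 5.92 and 5.92 with the injection vehicle and 5.97, 5.97, 6.05, 6.09 and 6.09 with lamotrigine. Kcnd3 and Kcnh3 followed with 0.47 and -0.23 (adjusted p = 0.143 and 0.157). In striatum the genes were Kcnk6 (-0.36), Kcne3 (-0.36) and Kcnk3 (-0.28), with adjusted p-values of 0.461, 0.551 and 0.578.

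More genes passed between the vehicle groups than between lamotrigine and its vehicle. The vehicles differ in route, and whatever else differed between the arms cannot be told apart from it, while the chow vehicle group is shared with the LiCl comparison. In hippocampus 13 of 71 genes passed between injection vehicle and chow vehicle, or 18.3%, against 18.5% of all probe sets. There were 5 higher with injection (10.9% of all) and 8 lower (7.60% of all), and 7 did not overlap, against 12.6% of all. In cortex 15 passed, or 21.1%, against 18.9% of all probe sets, with 7 higher (8.92% of all), 8 lower (10% of all) and 10 without overlap, against 13.4% of all. In striatum 2 passed, against 6.83% of all probe sets, both higher (3.83% of all), and 4 did not overlap, against 9.51% of all. These shares lie near or below the background.

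Kcnq3, an M-current subunit, was called in all 3 regions. In hippocampus it was at 6.16, 6.29, 6.21, 6.45 and 6.30 with the chow vehicle and 7.35, 7.21, 7.27, 7.09 and 6.84 with the injection vehicle. In cortex it was at 5.85, 6.11, 6.18, 6.30 and 6.46 with the chow vehicle and 7.07, 7.03, 6.93, 7.16 and 6.72 with the injection vehicle. The groups did not overlap in either region, with differences of 0.87 ± 0.11 (SE; adjusted p = 5.62e-06) and 0.80 ± 0.11 (SE; adjusted p = 1.83e-05).

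In striatum Kcnq3 was at 6.09, 6.35, 6.35, 6.47 and 6.36 with the chow vehicle and 7.04, 6.94, 7.31, 6.62 and 7.09 with the injection vehicle, a difference of 0.68 ± 0.19 (SE; adjusted p = 0.0356). This call was lost without any one array apart from injection vehicle replicate 4. The drug arrays stood with their own vehicle, as LiCl arrays were at 5.31 to 6.61 and lamotrigine arrays at 6.51 to 7.39 over the 3 regions. The second probe set of Kcnq3 gave -0.01 in hippocampus (adjusted p = 0.973), 0.53 in cortex (adjusted p = 0.00299) and 0.22 in striatum (adjusted p = 0.315), so only cortex had both.

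Kcnb2 was called in cortex and striatum. In cortex the injection vehicle arrays were at 7.09, 7.20, 7.19, 7.58 and 7.30, all above the chow vehicle arrays given above, a difference of 0.84 ± 0.11 (SE; adjusted p = 7.32e-06). In striatum it was at 5.42, 5.36, 5.57, 5.43 and 5.52 with the chow vehicle and 5.85, 5.87, 5.92, 6.12 and 6.06 with the injection vehicle. The groups did not overlap, with a difference of 0.50 ± 0.09 (SE; adjusted p = 0.000903). Hippocampal arrays overlapped, at 5.41 to 6.01 and 5.72 to 6.02, with a difference of 0.25 that did not pass (adjusted p = 0.142).

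**Figure D4:**
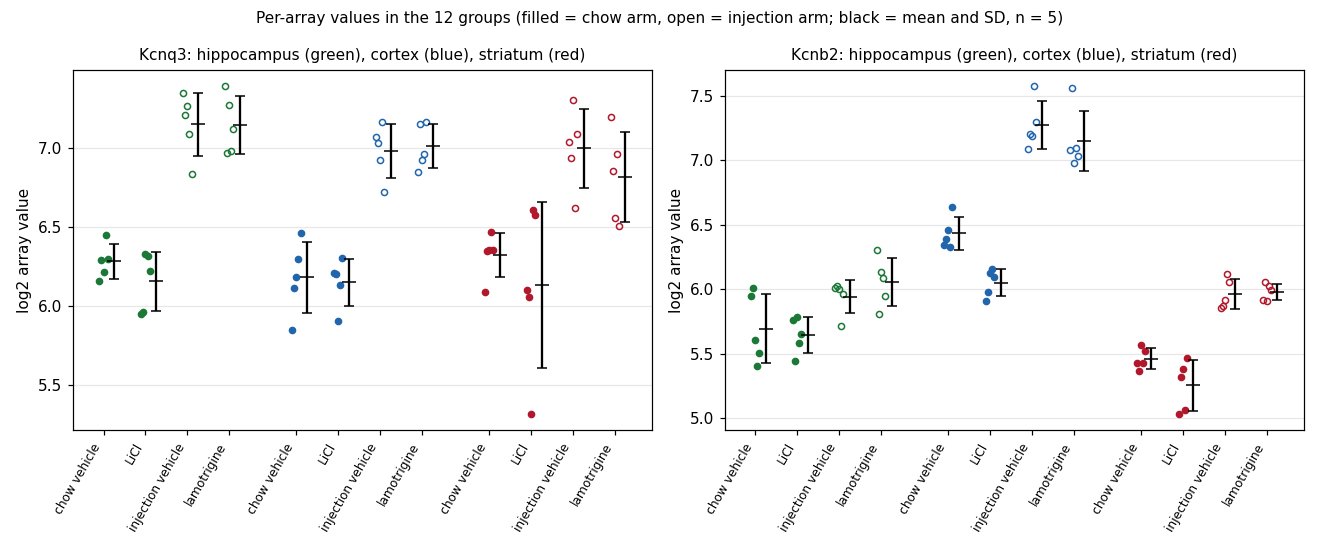
Log2 intensity of Kcnq3 and Kcnb2 in each array of the 12 groups, with the mean and SD of each group of 5 (filled, chow vehicle and LiCl; open, injection vehicle and lamotrigine). Kcnq3 was higher in the injection arm in all regions, at 6.51 to 7.39 against 5.31 to 6.61, and Kcnb2 was higher in that arm in cortex and striatum. In hippocampus Kcnb2 differed by 0.25 between the vehicles, which did not pass in limma (adjusted p = 0.142).

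Other channels called in hippocampus between the vehicles were higher for the inward rectifiers Kcnj3 (0.53, adjusted p = 0.0114) and Kcnj10 (0.42, adjusted p = 0.0214), the leak channel Kcnk1 (0.33, adjusted p = 0.0071) and Kcnd3 (0.30, adjusted p = 0.0404). Kcnj3 was at 8.16, 8.06, 8.15, 8.02 and 7.14 with the chow vehicle and 8.53, 8.52, 8.39, 8.45 and 8.30 with the injection vehicle. Its size rested partly on chow vehicle replicate 5, without which it was 0.34 (adjusted p = 0.00767), and another probe set gave 0.56 (adjusted p = 0.000139). The 8 lower genes were led by Kcnt1 (-0.40, adjusted p = 0.0332) and Kcnj9 (-0.38, adjusted p = 0.0239), and included Kcnh3 (-0.22, adjusted p = 0.0036) and Kcne3 (-0.23, adjusted p = 0.0329). The rest were Kcnj5, Kcnh6, Kcnn1 and Kcnc4, between -0.26 and -0.19. Among the called genes Kcnj10, Kcnj5 and Kcnh6 had low mean log2 levels, at 5.56, 5.87 and 5.42. The choroid plexus list had a median of 0.99 here, its part was not tested, and without the arrays high in it 6 genes passed. Without injection vehicle replicate 5 it was 7 genes, without injection vehicle replicate 3 or chow vehicle replicate 2 it was 8, and with the array spread as a covariate 2, Kcnq3 and Kcnj3.

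In cortex the higher genes also included the glial inward rectifiers Kcnj16 (0.56, adjusted p = 0.0402) and Kcnj10 (0.51, adjusted p = 0.0030), and Kcnh7, Kcne4 and Kcnh5 at 0.36 to 0.49. The lower genes were led by Kcng2 (-0.43, adjusted p = 0.000811), Kcnk4, Kcnk5 and Kcnq5 (-0.32, -0.32 and -0.31), with Kcnj6 (-0.27, adjusted p = 0.00233), Kcnt1, Kcnh3 and Kcnab1 after them. Kcnj6 thus stood at -0.41 with LiCl and -0.27 with injection, both against the same chow vehicle arrays. Other probe sets of Kcnj6 and Kcnab1 went up here, by 0.57 (adjusted p = 0.000555) and 0.37 (adjusted p = 0.0194). Among the called genes Kcnj10, Kcnh7, Kcne4, Kcnh5 and Kcnk5 had low mean log2 levels, at 5.56, 4.60, 5.59, 4.21 and 5.51. Leaving out single arrays gave 10 to 16 called genes. In striatum the third gene by p was Kcnq5, at -0.29 (adjusted p = 0.106).

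Kcnc2 showed how far this comparison depended on the probe set. The probe set used had differences of -0.06 in hippocampus and -0.02 in cortex, and did not pass. Of the other 5, 4 were called higher with injection in both regions, by 0.50 to 0.91 in hippocampus and 0.43 to 0.83 in cortex. Kcnc2 was named here after its values were seen. Of the 27 measured partner genes, 4 were higher and 1 lower in hippocampus, 2 higher and 3 lower in cortex, and 1 lower, Cntnap1, in striatum. So 5 of 27 were called in each of hippocampus and cortex, beside 18.5% and 18.9% of all probe sets.

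In striatum and hippocampus the highest levels of Kcne2 lay in arrays where choroid plexus genes stood high, and with Kcnj13 it was named after its values were seen. Kcne2 encodes an accessory subunit that is abundant in the choroid plexus, the tissue that makes cerebrospinal fluid, and Kcnj13 encodes Kir7.1 of the same epithelium. In striatum Kcne2 was at 7.97 to 8.44 (median 8.33) in the 5 arrays whose choroid list stood out, at 8.91 to 9.53, and at 4.89 to 5.59 in the other 15. In hippocampus it was at 5.09 to 7.17 (median 6.12) in 6 such arrays and 4.75 to 5.42 in the other 14, a slight overlap. In cortex it was at 5.51 in the single such array and 4.40 to 5.26 in the other 19. Within cortex the LiCl arrays of Kcne2, at 5.03, 5.26, 5.21, 5.13 and 5.13, lay just above the chow vehicle arrays, at 4.99, 4.40, 5.03, 4.89 and 4.73, a difference of 0.34 that did not pass (adjusted p = 0.0974), and none of these 10 arrays was among the choroid-high ones. The probe set of Kcnj13 did not follow, at 5.57 to 5.81 in the 5 striatal arrays and 5.36 to 6.0 in the other 15. Its mean log2 level was low, at 5.78, and whether it detected the transcript was not tested.

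**Figure D5:**
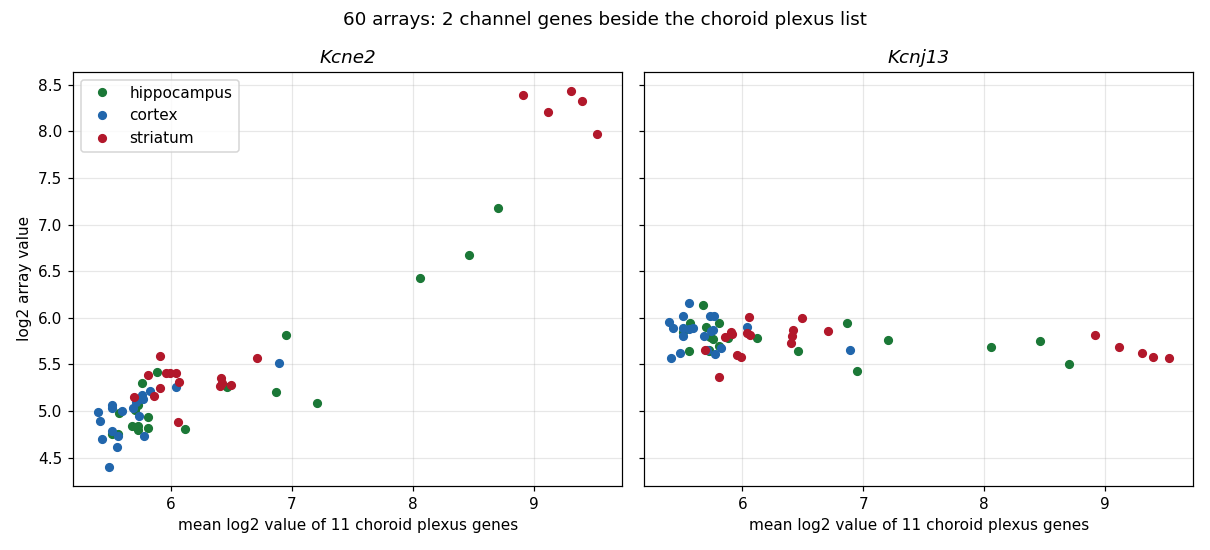
Log2 intensity of Kcne2 and Kcnj13 in each of the 60 arrays against the mean log2 level of 11 choroid plexus genes in that array, by region. Kcne2 reached 8.44 in striatal arrays where the list stood at 8.91 to 9.53, and Kcnj13 stayed at 5.36 to 6.16 throughout.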

How the data were processed

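Total RNA of 60 samples was hybridised to Affymetrix rat arrays (1 colour, biotin label), 20 per region. Per the submitters' processing notes, the authors normalised the arrays with RMA in R 2.7.2. The deposited values were linear intensities, between 6.93 and 28582.45, although log2 values had been assumed, so log2 was taken without a pseudocount. Of 31099 probe sets, 57 controls were left out and 31042 tested.

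Members and gene lists were chosen with earlier results of these data known. limma 3.58.1 (R 4.3.3) was fitted with lmFit and eBayes (trend) on the 20 arrays of a region, two-sided, with Benjamini-Hochberg adjustment over all tested probe sets. Region contrasts and tests of a difference between regions used all 60 arrays, and duplicateCorrelation took the animal as a block (correlation 0.133; 24 animals by the numbers in the descriptions). Each of the 10 injected animals gave all 3 regions, whereas 7 animals gave the LiCl samples and 7 the chow vehicle samples. Array number limits the precision. Differences are first group minus second.

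Named were all called genes of a drug or vehicle comparison (the 3 smallest p where fewer than 3 were called), and in region contrasts the 6 largest called differences each way. Other genes are said to be named after their values were seen. All 71 genes matched RefSeq by Entrez identifier. Alternatives were quantile normalization, a filter on dim probe sets, all probe sets of a gene, the array interquartile range as a covariate, the replicate block, a fit of all arrays, injection vehicle only, arrays high in choroid plexus genes left out, and each replicate left out. The code was tested on simulated data.

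Same-numbered samples did not deviate together: at most 1 of 5 pairs in a comparison had a correlation over 0.1.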

Additional observations from a re-analysis of the deposited data

Results flagged for a closer look

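In 11 of 172 combinations of a named gene and a group of 5, one array stood apart from the other 4, where chance gives about 1 in 20. Most stood low. Kcnj3 was at 7.14 in hippocampus chow vehicle replicate 5, where the others were at 8.02 to 8.17, and Kcnh4 in the same array was at 5.47, against 5.93 to 6.06. Kcnh1 was at 9.05 in cortex chow vehicle replicate 5, against 9.31 to 9.39. Kcnb2 was at 5.72 in hippocampus injection vehicle replicate 4, against 5.97 to 6.02. Kcnd1 was at 7.27 in striatum injection vehicle replicate 4, against 7.62 to 7.72, and at 6.16 in cortex injection vehicle replicate 5, against 6.37 to 6.43. Kcng2 was at 6.81 in striatum injection vehicle replicate 3, against 7.06 to 7.14.

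The arrays that stood high were Kcne3 at 6.02 in hippocampus LiCl replicate 4, against 5.72 to 5.78, and Kcnk1 at 8.63 in cortex LiCl replicate 4, against 8.32 to 8.40. Kcnc4 was at 8.57 in hippocampus chow vehicle replicate 1, against 8.42 to 8.46, and Kcnj9 was at 7.36 in cortex chow vehicle replicate 4, against 6.99 to 7.09.

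The LiCl effect differed between the regions for 12 genes in limma, with adjusted p-values of 2.95e-06 for Kcne3, 0.00027 for Kcnk3, 0.00122 for Kcnd2, 0.00298 for Kcnh6, 0.00815 for Kcne1, 0.00973 for Kcnmb1, 0.0106 for Kcnh1, 0.0124 for Kcnq5, 0.0169 for Kcnk6, 0.0193 for Kcnj15, 0.0354 for Kcng2 and 0.043 for Kcnn1.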

How the results depend on the processing

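The LiCl calls in cortex were 15, and were 6 after quantile normalization, 0 with the array spread as a covariate and 7 to 13 when single arrays were left out (7 without LiCl replicate 1 or chow vehicle replicate 2). Of the called genes named, Kcnj15 alone changed sign, to -0.035, with that covariate. In cortex the spread separates the LiCl arrays from the chow vehicle arrays. In hippocampus it nearly separates the chow vehicle arrays from the LiCl and injection vehicle arrays. Calls lost with the covariate there cannot tell treatment and spread apart. The LiCl call in hippocampus became 0 after quantile normalization, with the covariate, with the replicate block and when the choroid-high arrays (choroid plexus genes over 1 log2 unit above the region's median) were omitted, and was 0 to 1 with single arrays left out. In striatum the fit of all 60 arrays gave 1 LiCl call in place of 0. The drug difference in cortex was 0 to 2 (2 without lamotrigine replicate 3). Between the vehicles, the 13 hippocampal calls became 2 with the covariate, 6 without the choroid-high arrays and 7 to 13 with single arrays left out. The 2 striatal calls became 1 with the replicate block, 1 without the choroid-high arrays and 1 to 2 with single arrays left out. The 12 genes whose LiCl effect differed between regions became 5 after quantile normalization, 7 of 40 without dim probe sets, 21 probe sets when all were counted and 0 with the covariate, which was added after seeing the data. Within a region the samples of different groups share only a replicate number, and as a block it moved no other of these counts by over 1.5 times. The region counts stayed at 48 to 51 (striatum and cortex), 38 to 42 (hippocampus and cortex) and 42 to 47 (striatum and hippocampus) with single arrays left out. Among single named genes, 264 results fell short of the threshold under an alternative, 4 newly passed and 2447 kept their side.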
